A study of Danio rerio with 16 samples.

Results

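Skeletal muscle genes were followed in zebrafish primordial germ cells (PGCs), the embryonic precursors of eggs and sperm, and in somatic cells (soma) of the same stages. The 6 genes, listed by name and Ensembl identifier and not by their levels, were *myod1* (ENSDARG00000030110), *myf5* (ENSDARG00000007277), *myog* (ENSDARG00000009438), *mylpfa* (ENSDARG00000053254), *ckma* (ENSDARG00000035327) and *acta1b* (ENSDARG00000055618), out of 34289 genes in the table. All 6 passed the filter on low counts, as did 20536 genes in all. RNA-seq was performed on PGCs and soma at 4 hpf (hours post fertilisation, blastula), 7 hpf (gastrula), 24 hpf (prim-5) and 36 hpf (prim-25), with 2 libraries in each of the 8 groups. All cells came from embryos with the transgene kop:egfp-f, a membrane-bound farnesylated EGFP driven by the germ line promoter kop and joined to nos3'UTR, which keeps the RNA in PGCs, together with the marker cry:dsred. PGCs were collected by this fluorescence (FACS), and soma were the other sorted cells of such embryos. No other allele or treatment set the groups apart, except that the study's methods have embryos older than 24 hpf kept in phenylthiourea, which blocks pigment. The study's methods also name several rearing temperatures, and the labels used here do not tie them to libraries. The study calls replicates biologically independent, but the labels do not say which embryos went into each. Soma 24 hpf replicate 1 has a source label that names PGCs, while its title and cell type say soma. Its 5 germ line markers summed to 4.84 CPM, against 12.2 CPM in soma 24 hpf replicate 2, so it was used as soma.

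Skeletal muscle forms in the somites from precursors that switch on a family of DNA-binding regulators. *Myod1* and *Myf5* commit cells to the muscle fate and *Myog* drives their fusion and differentiation, after which the cells fill with sarcomere proteins and the enzymes that feed them. Of the genes at that later step, *mylpfa* encodes the regulatory light chain of fast muscle myosin, *acta1b* a skeletal muscle alpha-actin of the thin filament and *ckma* the muscle creatine kinase, which restores ATP during contraction. *myod1*, *myf5* and *myog* are called the regulators here, and the other genes the contractile and metabolic genes.

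The libraries held between 2825775 and 15633266 expected counts, and 3 counts, the smallest number read as a signal, came to between 0.182 and 0.719 CPM (counts scaled to the TMM-normalised library size). The germ line markers *nanos3*, *dnd1*, *tdrd7a*, *ddx4* and *dazl* were called higher in PGCs for 4, 5, 4 and 5 of 5 genes at 4, 7, 24 and 36 hpf. The PGC 36 hpf replicates were the least alike of the 8 pairs: the correlation of their log2 values was 0.766 over 12951 genes, against 0.836 to 0.936 in the other groups. Soma 24 hpf replicate 1 differed from its partner in most muscle genes, as given below. Some results at these stages are therefore also given without single libraries.

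Of the 6 genes, 5 had at most 25 counts in any library until 7 hpf, reached their highest levels at 24 hpf in PGC libraries as well as in soma, and were lower in value at 36 hpf, while *myf5* was already present at 7 hpf and stayed low. The summed level of the 6 genes was 4218 and 8249 CPM in PGCs at 24 hpf, against 788 and 7293 CPM in soma at 24 hpf. At 36 hpf it was 143 and 189 CPM in PGCs, against 196 and 541 CPM in soma. At 24 hpf the 6 genes took 0.318% and 0.545% of all counts of the PGC libraries, against 0.0657% and 0.466% of the soma libraries. At 36 hpf these shares were 0.0150% and 0.0303% for PGCs, against 0.0144% and 0.0397% for soma. In bulk samples such as these, fewer muscle cells and less muscle RNA per cell cannot be told apart.

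**Figure D1:**
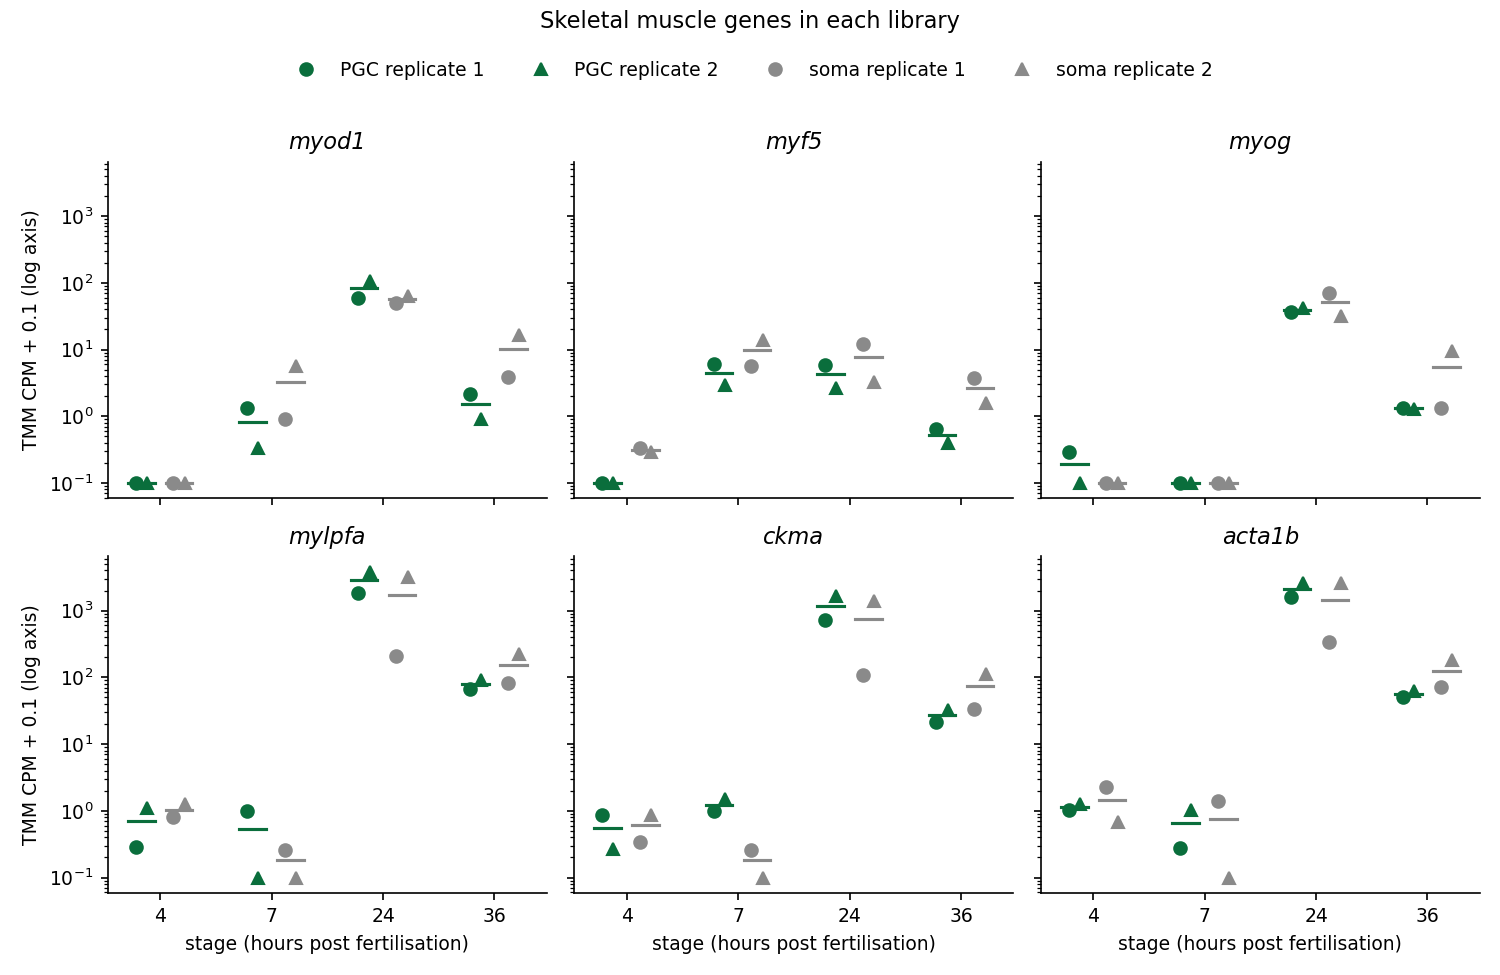
TMM-normalised CPM plus 0.1 (log axis) of each muscle gene at 4, 7, 24 and 36 hpf, with PGC libraries in green and soma libraries in grey, circles for replicate 1, triangles for replicate 2 and bars at the mean of the 2 libraries. All 6 genes overlap between PGCs and soma at 24 hpf, where soma replicate 1 is low in *mylpfa*, *ckma* and *acta1b*, and at 36 hpf the PGC symbols lie far below their 24 hpf positions.

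At 4 hpf, no muscle gene had more than 9 counts in any library. *myod1* was at 0 in all 4 libraries, *myf5* had 0 counts in both PGC libraries and 1 count in each soma library, and *myog* had 1 count in PGC replicate 1 and 0 in the other 3. *mylpfa*, *ckma* and *acta1b* had between 1 and 7 counts in PGCs and between 1 and 9 counts in soma. None of the 6 genes was called different between PGCs and soma (adjusted p of at least 0.945; percent of all genes called, 0.0438% higher and 0% lower). None reached an unadjusted p under 0.05 with edgeR, and DESeq2 and limma called 0 as well. At this depth, levels below the values of 3 counts given above could not be detected.

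At 7 hpf, *myf5* was the muscle gene with the most counts in each library. *myf5* was at 5.96 and 2.82 CPM (34 and 12 counts) in PGCs, against 5.64 and 14.0 CPM (35 and 64 counts) in soma. *myod1* was at 1.23 and 0.235 CPM (7 and 1 counts) in PGCs, against 0.805 and 5.47 CPM (5 and 25 counts) in soma. Soma replicate 2 was the highest library for both genes, and the groups overlapped for both. *myog*, which acts later in the same cascade, had 0 counts in all 4 libraries.

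The contractile and metabolic genes stayed at 8 counts or fewer at 7 hpf. *ckma* had 5 and 6 counts in PGCs, against 1 and 0 counts in soma, a ratio of summed counts of 11.9 with a 95% counting interval of 1.73 to 512, and its groups did not overlap. Over all genes, 23.3% did not overlap in that direction. None of the 6 genes was called at 7 hpf, where 3.16% of all genes were called higher and 0.813% lower in PGCs. The adjusted p was 0.309 for *myod1*, 0.500 for *myf5* and 0.341 for *ckma*. None of the 6 had an unadjusted p under 0.05 with edgeR, and DESeq2 and limma called 0. Without the filter on low counts, 1 of 6 was called, against 1462 of 27454 genes called higher and 395 lower.

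Between 4 and 7 hpf, *myf5* was the muscle gene that was called higher at the later stage in both cell types. In PGCs it was at least 4.97-fold higher at 7 hpf than the level of 3 counts in the shallower 4 hpf library (adjusted p 0.0121), and it was the 1 gene of the 6 called with edgeR, against 5.03% of all genes called higher and 2.08% lower. In soma its summed counts gave a ratio of 42.8 (95% counting interval 11.6 to 359, adjusted p 0.0065). *myod1* was called in soma as well (adjusted p 0.0222), at least 1.12-fold above the floor at 7 hpf, which made 2 of 6 called higher, against 9.29% of all genes called higher and 9.37% lower. In PGCs, the adjusted p of *myod1* was 0.189. These calls rest on few counts. In PGCs the call was lost without 4 hpf replicate 1, without 4 hpf replicate 2 or without 7 hpf replicate 1. In soma the calls were lost without 4 hpf replicate 1, and fewer were made without 4 hpf replicate 2 or without 7 hpf replicate 2. Each of these fits leaves 1 library in a group and called fewer of all genes too. The part of low counts in these losses was not tested. The test of whether the 7 hpf change of *myf5* differed between the cell types gave an adjusted p of 0.712.

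At 24 hpf, all 6 genes were detected in every library. *mylpfa* was at 1819 and 3839 CPM in PGCs, against 208 and 3217 CPM in soma. *acta1b* was at 1576 and 2607 CPM in PGCs, against 340 and 2579 CPM in soma. *ckma* was at 722 and 1652 CPM in PGCs, against 107.5 and 1398 CPM in soma. By CPM, in all 3 genes, PGC replicate 2 was the highest library and soma replicate 1 the lowest, and soma replicate 2 lay between the PGC replicates. By TPM, the deposited values scaled for length and to a common total, soma replicate 2 was the highest library in all 3 genes. It was at 879 TPM for *mylpfa*, 350 TPM for *ckma* and 667 TPM for *acta1b*, against 847, 334 and 544 TPM in PGC replicate 2. Soma replicate 1 was the lowest by TPM too.

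Of the regulators, *myod1* followed the same order of libraries by CPM, and *myog* and *myf5* did not. *myod1* was at 59.8 and 107.9 CPM in PGCs, against 49.1 and 64.2 CPM in soma. *myog* was at 36.4 and 41.2 CPM in PGCs, against 71.3 and 31.8 CPM in soma. *myf5* was at 5.77 and 2.55 CPM in PGCs, against 11.9 and 3.18 CPM in soma. By CPM, soma replicate 1, the lowest library for *mylpfa*, *acta1b*, *ckma* and *myod1*, was thus the highest for *myog* and *myf5*. By TPM, *myod1* was at 13.96 and 19.2 in PGCs, against 15.26 and 14.12 in soma, so that soma replicate 1 was not its lowest library. PGC and soma libraries overlapped for all 6 genes.

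None of the 6 genes was called different between PGCs and soma at 24 hpf. The log2 fold change was 0.72 ± 0.87 (SE, n = 2 each) for *mylpfa*, with a 95% interval of -1.14 to 2.58. It was 0.66 ± 0.82 for *ckma* (-1.10 to 2.42) and 0.52 ± 0.77 for *acta1b* (-1.14 to 2.17). Among the regulators it was 0.57 ± 0.78 for *myod1* (-1.14 to 2.27), -0.41 ± 0.77 for *myog* (-2.10 to 1.28) and -0.85 ± 0.90 for *myf5* (-2.80 to 1.09). These intervals leave room for differences of several-fold in either direction. All 6 adjusted p-values were 1, none of the 6 had an unadjusted p under 0.05, and DESeq2 and limma called 0, against 0.039% of all genes called higher and 0% lower with edgeR.

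The direction of these differences rested on soma replicate 1. Without it, *mylpfa*, *ckma* and *acta1b* had log2 fold changes of -0.18, -0.24 and -0.30, and *myog* and *myf5* had 0.29 and 0.39, so that 5 of the 6 genes changed sign, while *myod1* stayed at 0.39. Without soma replicate 2, the values were 3.77 for *mylpfa*, 3.47 for *ckma* and 2.62 for *acta1b*, with adjusted p-values of 0.39, 0.416 and 0.931. *ckma* also changed sign without PGC replicate 2, at -0.06.

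Relative to *myog* and *myod1*, soma 24 hpf replicate 1 had fewer counts of *mylpfa* than any other library of that stage. Its ratio of *mylpfa* to *myog* counts was 2.92 (95% counting interval 2.64 to 3.23), against 101 (88.1 to 117) in soma replicate 2. The PGC libraries of that stage had ratios of 50.0 (44.6 to 56.3) and 93.2 (83.0 to 105), nearer to soma replicate 2. The ratio of *mylpfa* to *myod1* gave the same picture, with 30.4 and 35.6 in PGCs, against 4.24 and 50.1 in soma. These ratios are taken within a library, so that library size and scaling do not enter them, and the intervals cover counting error only.

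**Figure D2:**
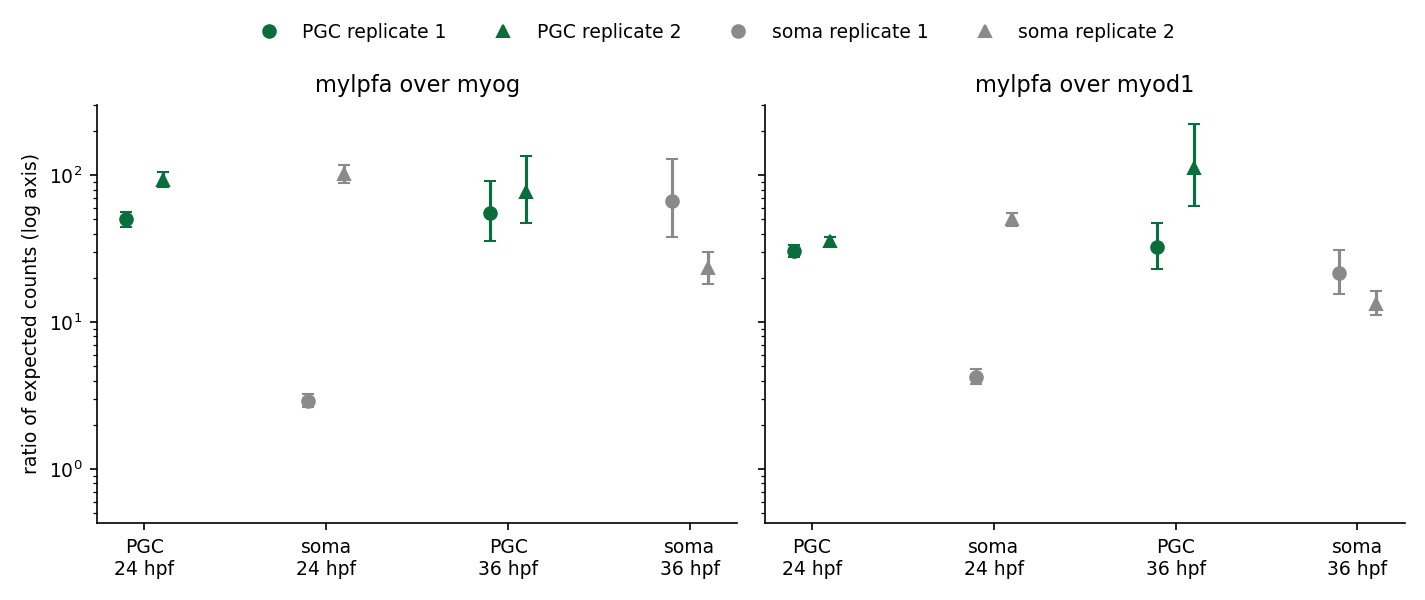
Ratio of *mylpfa* to *myog* counts (left) and of *mylpfa* to *myod1* counts (right) in each library at 24 and 36 hpf, on a log axis, with PGCs in green and soma in grey, circles for replicate 1, triangles for replicate 2, and bars for the 95% counting interval. Soma 24 hpf replicate 1, at 2.92 and 4.24, lies below every other library in both panels.

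Genes that mark the unsegmented mesoderm from which somites form, *tbx6* and *msgn1*, moved with these library differences. *tbx6* was at 27.9 and 2.83 CPM in PGCs, against 64.7 and 21.8 CPM in soma, and *msgn1* was at 10.2 and 0.991 CPM in PGCs, against 15.9 and 4.13 CPM in soma. In each cell type at 24 hpf, replicate 1 was higher in both genes and lower in *mylpfa*, *ckma* and *acta1b*. The mesoderm regulator *tbx16* was also higher in replicate 1 of each cell type. *tbxta*, another, was at 39.2 and 38.9 CPM in PGCs, against 44.0 and 38.6 CPM in soma. At 36 hpf in soma, replicate 2 was higher in *tbx6* (0.305 and 7.74 CPM) and *msgn1* (1.02 and 2.04 CPM), and also in *mylpfa*, *ckma* and *acta1b*. At 24 hpf, the fast muscle calcium buffers *pvalb1* and *pvalb2* were at 1.52 and 0.968 CPM in soma replicate 1. In soma replicate 2 of that stage they were at 349 and 395 CPM. The part of such mesoderm cells in these differences was not tested.

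Other somatic markers were read in the same 24 hpf libraries, from lists of 3 blood, 3 epidermal, 2 neural, 2 heart and 1 notochord gene. The summed blood markers were at 47.7 and 47.1 CPM in PGCs, against 189 and 179 CPM in soma. The epidermal keratins summed to 3794 and 10332 CPM in PGCs, against 10179 and 10817 CPM in soma, and the neural markers to 286 and 239 CPM in PGCs, against 276 and 313 CPM in soma. The notochord marker *ntd5* was at 36.6 and 28.2 CPM in PGCs, against 64.0 and 33.0 CPM in soma, and the heart markers *myl7* and *cmlc1* summed to 2.09 and 1.27 CPM in PGCs, against 12.3 and 5.88 CPM in soma. PGC replicate 2, the higher of the PGC replicates in *mylpfa*, *ckma* and *acta1b*, was also the higher in epidermal keratins and the lower in germ line markers, which summed to 743 CPM in PGC replicate 1 and 572 CPM in PGC replicate 2. The study estimated a high purity for its sorted PGCs. The part of other cells in the muscle levels of the PGC libraries was not tested.

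In PGCs, 5 of the 6 muscle genes were called higher at 24 hpf than at 7 hpf, against 18.2% of all genes called higher and 5.97% lower, and *myf5* was not called. The median log2 fold change over all genes was 0.43 in PGCs and 0.49 in soma between these stages. The log2 fold change was 12.45 ± 1.48 for *mylpfa*, 11.94 ± 1.31 for *acta1b*, 10.03 ± 1.27 for *ckma* and 6.72 ± 1.09 for *myod1* (SE, n = 2 each), with adjusted p-values between 0.000106 and 0.000942. *myog*, which had no counts at 7 hpf, was at least 51.6-fold higher at 24 hpf (adjusted p 0.000669). *myf5* had a log2 fold change of -0.08 ± 0.91 (adjusted p 0.958), with 5.77 and 2.55 CPM at 24 hpf against 5.96 and 2.82 CPM at 7 hpf.

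In soma, the same 5 of the 6 genes were called higher at 24 hpf than at 7 hpf, against 22.1% of all genes called higher and 8.76% lower. *acta1b* had a log2 fold change of 10.97 ± 1.25 and *myod1* of 4.21 ± 0.93 (SE, n = 2 each), with adjusted p-values of 6.74e-05 and 0.00437. *mylpfa* and *ckma*, with 1 and 0 counts at 7 hpf, had ratios of summed counts of 17340.3 (95% counting interval 3112 to 684937) and 7636 (1370.25 to 301650). *myog* was at least 48.4-fold higher (adjusted p 0.000422), and *myf5* changed by -0.37 ± 0.89 (adjusted p 0.771). The change between 7 and 24 hpf was not called different between the cell types for any of the 6 genes (adjusted p of at least 0.487, against 0.00974% of all genes called higher and 0.122% lower). *myog* had 0 counts in all 7 hpf libraries, so its difference could not be estimated (SE 814 on the log2 scale). None of the other 5 reached an unadjusted p under 0.05 in that test, and DESeq2 and limma called 0.

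At 36 hpf, both PGC replicates were below soma by CPM in most muscle genes. *mylpfa* was at 67.1 CPM in PGC replicate 1 and 92.0 CPM in PGC replicate 2, against 81.8 and 221 CPM in soma. *acta1b* was at 50.2 and 62.7 CPM in PGCs, against 71.7 and 179 CPM in soma. *ckma* was at 21.6 and 32.1 CPM in PGCs, against 33.7 and 114 CPM in soma. PGC replicate 2 was above PGC replicate 1 in all 3 genes, soma replicate 2 was the highest library in all 3, and *mylpfa* was the one gene whose groups overlapped by CPM.

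The regulators had between 4 and 34 counts in PGCs at 36 hpf, and *myf5* was the closest to the limit of 3 counts. *myod1* was at 2.06 and 0.824 CPM (34 and 11 counts) in PGCs, against 3.77 and 16.6 CPM (37 and 122 counts) in soma. *myog* was at 1.214 and 1.199 CPM (20 and 16 counts) in PGCs, against 1.222 and 9.505 CPM (12 and 70 counts) in soma. *myf5* was at 0.546 and 0.300 CPM (9 and 4 counts) in PGCs, against 3.67 and 1.49 CPM (36 and 11 counts) in soma. By CPM, PGC and soma libraries did not overlap for these 3 genes, but for *myog* the highest PGC library and the lowest soma library had nearly the same value.

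By CPM, 5 of the 6 genes did not overlap at 36 hpf and were lower in PGCs, against 24% of all genes that did not overlap in that direction. By TPM, *ckma*, *acta1b* and *myog* overlapped as well, with *ckma* at 8.93 and 23.81 in PGCs, against 11.85 and 36.62 in soma. None of the 6 was called (0.506% of all genes called higher and 0.0146% lower). The log2 fold change was -2.78 ± 0.88 for *myod1* (95% interval -4.68 to -0.87), -2.56 ± 0.99 for *myf5* (-4.68 to -0.43) and -2.12 ± 0.85 for *myog* (-3.99 to -0.25; SE, n = 2 each), with adjusted p-values of 0.196, 0.25 and 0.274. It was -1.46 ± 0.84 for *ckma* (-3.26 to 0.35), -1.15 ± 0.78 for *acta1b* (-2.83 to 0.53) and -0.93 ± 0.87 for *mylpfa* (-2.80 to 0.94), with adjusted p-values of 0.405, 0.484 and 0.628. The regulators were the 3 of 6 genes with an unadjusted p under 0.05. Over all genes, 566 of 20536 had such a p with a log2 fold change under -1.5. DESeq2 and limma called 0 of 6, the likelihood ratio test 1, and edgeR without the filter 2. Over all genes, the likelihood ratio test called 169 of 20536 lower and edgeR without the filter 515 of 27454. Without soma replicate 2, the difference shrank to -0.03 for *myog*, -0.05 for *mylpfa*, -0.34 for *ckma* and -0.36 for *acta1b*. It was -1.36 for *myod1* and -3.06 for *myf5*. For this comparison, leaving out the other libraries is given below for the wider contractile list only.

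**Figure D3:**
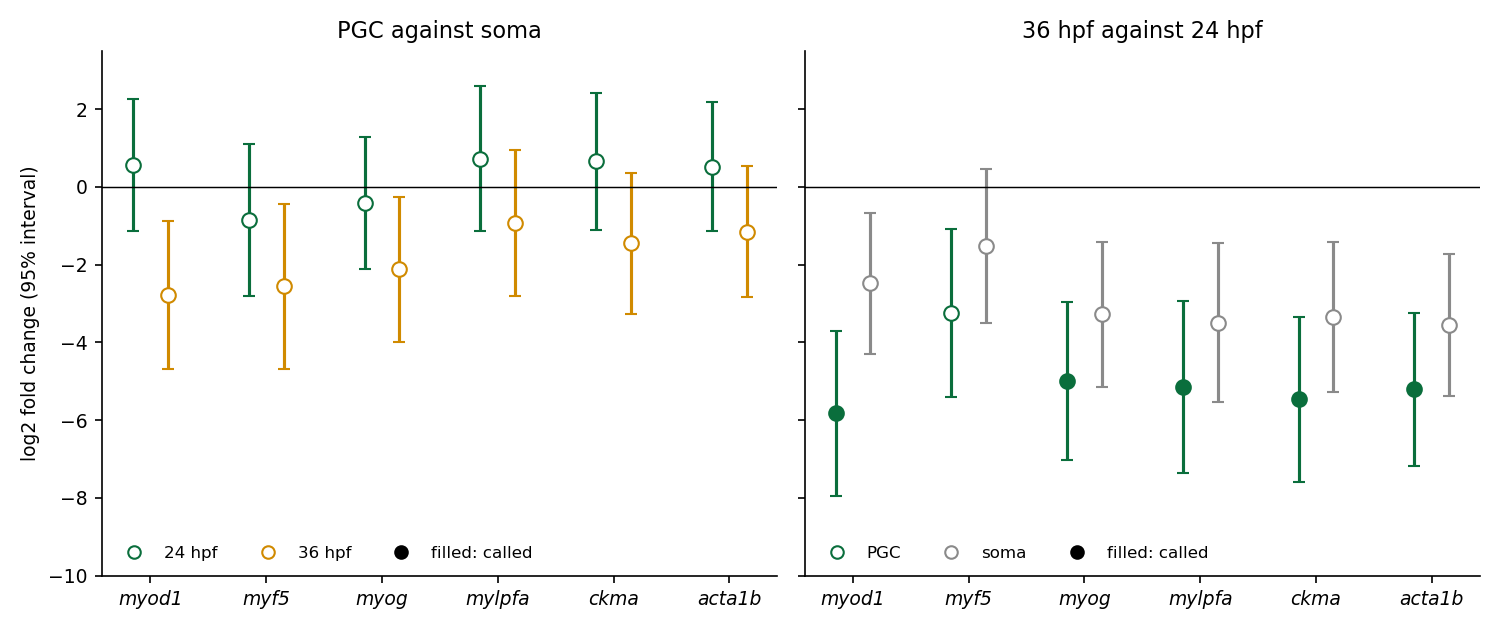
Log2 fold change of the 6 genes with its 95% interval, for PGC against soma at 24 and 36 hpf (left) and for 36 hpf against 24 hpf in PGCs and in soma (right), where filled symbols are called genes. All 24 hpf intervals on the left include 0, and on the right the 5 called genes are the PGC values between -5.83 and -4.99.

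The PGC 36 hpf replicates were set side by side for each muscle gene. Replicate 2 over replicate 1 was 1.37 for *mylpfa*, 1.48 for *ckma*, 1.25 for *acta1b*, 0.988 for *myog*, 0.549 for *myf5* and 0.399 for *myod1*. Over all genes with a mean of at least 5 CPM, the log2 ratio of replicate 1 to replicate 2 had a median of 0.01 and its middle 90% ran from -1.30 to 2.19. The log2 ratios of the 6 genes lay between -0.57 and 1.32, within that range. *myod1*, *myog* and *myf5* had means under 5 CPM, so the range was not drawn from genes at their level. As a percent of the soma mean, *mylpfa* was at 44.3% and 60.7%, *ckma* at 29.3% and 43.5%, *acta1b* at 40.1% and 50.0%, *myog* at 22.6% and 22.4%, *myf5* at 21.2% and 11.6% and *myod1* at 20.3% and 8.11% in PGC replicates 1 and 2.

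Between the PGC 36 hpf replicates, markers of other tissues were lower in replicate 2, as *myod1* and *myf5* were, while *mylpfa*, *ckma* and *acta1b* were higher there. *elavl3*, an RNA-binding protein of neurons, was at 501 CPM in PGC replicate 1 and 48.6 CPM in PGC replicate 2, which is 75.1% and 7.28% of the soma mean. *hbae3*, an embryonic globin, was at 327 and 13.8 CPM, or 39.4% and 1.66% of the soma mean, and *krt4*, an epidermal keratin, at 2011 and 583 CPM, or 22.1% and 6.40%. All 10 markers of blood, epidermis, nervous system and heart that were read were lower in replicate 2, and so was the notochord marker *ntd5*. The blood list summed to 339 and 18.2 CPM, the epidermal list to 2472 and 811 CPM and the neural list to 540 and 50.6 CPM, and *gata1a* and *myl7* were at 0 in replicate 2. The 5 germ line markers were each higher in replicate 2 and summed to 934 CPM in replicate 1 and 2196 CPM in replicate 2. The part of these other cells in the muscle values was not tested.

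**Figure D4:**
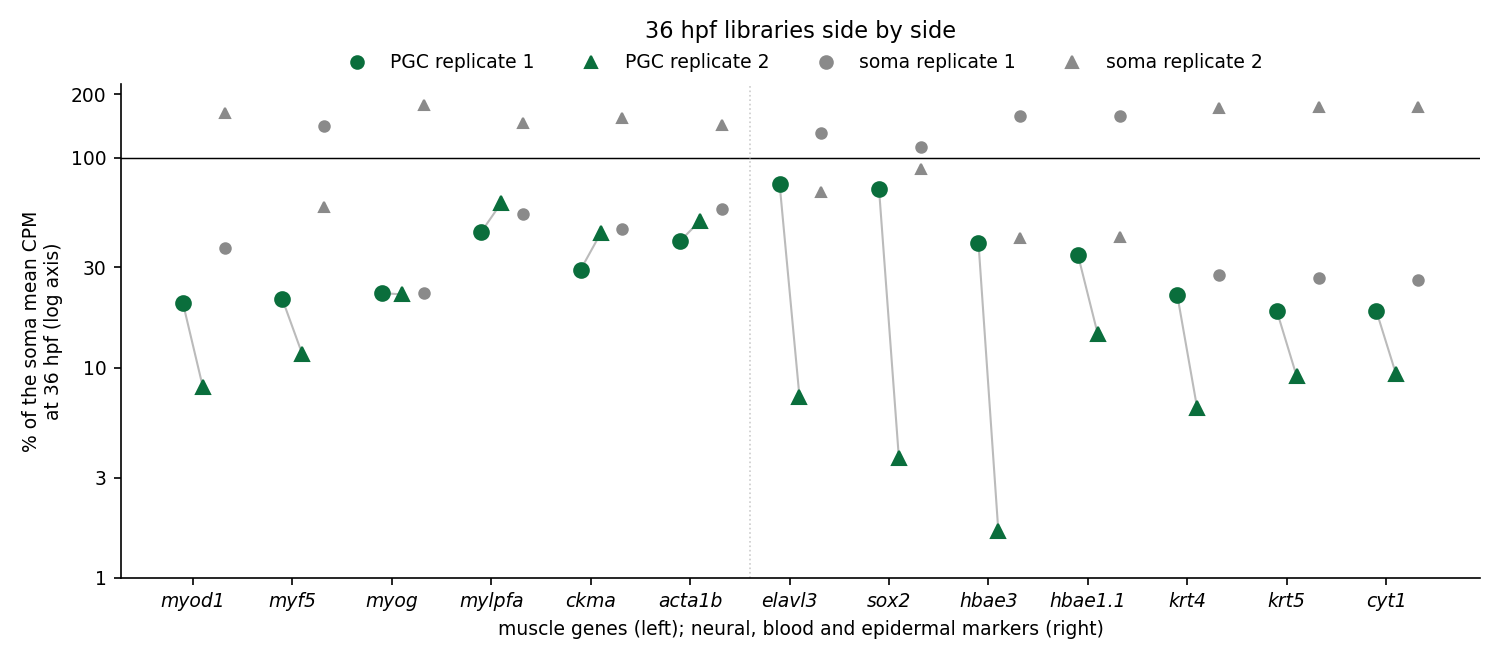
Level of the muscle genes (left of the dotted line) and of neural, blood and epidermal markers (right) in each 36 hpf library as a percent of the soma mean, on a log axis, with PGCs in green, soma in grey, circles for replicate 1 and triangles for replicate 2. The line at 100 is the soma mean. PGC replicate 2 is the higher PGC replicate in *mylpfa*, *ckma* and *acta1b* and the lower in all 7 markers drawn, where it lies between 1.66% for *hbae3* and 14.4% for *hbae1.1*.

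Scaling changed this side-by-side view. In TPM, *mylpfa* was at 30.3 and 74.6 in PGCs, against 31.3 and 77.8 in soma, so that PGC replicate 2 stood at 137% of the soma mean where CPM gave 60.7%. *ckma* stood at 36.8% and 98.2% and *acta1b* at 50.1% and 112% of the soma mean TPM in PGC replicates 1 and 2. In TPM, replicate 2 over replicate 1 was 2.46 for *mylpfa*, 2.67 for *ckma* and 2.24 for *acta1b*, against 0.942 for the keratin *krt5* and 0.873 for *cyt1*, which in CPM had 0.488 and 0.497. *myog* was higher in PGC replicate 2 in TPM (0.68 and 1.04) and nearly equal in CPM. The TMM factor was 1.61 for PGC 36 hpf replicate 2, the highest of the 4 libraries of that stage, where it was 1.06 for PGC replicate 1 and 0.737 and 0.734 for the soma libraries. The 2 genes with the most counts over all libraries took 24.4% and 10.6% of the counts of the PGC libraries, against 39.1% and 35.7% in soma.

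The fall between 24 and 36 hpf was the largest change of the muscle genes after their appearance. In PGCs, 5 of the 6 genes were called lower at 36 hpf than at 24 hpf, against 1.69% of all genes called lower and 0.185% higher, and the stages did not overlap for any of the 6, against 26.1% of all genes in that direction. The log2 fold change was -5.83 ± 0.98 for *myod1* (95% interval -7.95 to -3.70, adjusted p 0.0142), -5.47 ± 0.99 for *ckma* (-7.59 to -3.34, 0.0147) and -5.21 ± 0.92 for *acta1b* (-7.19 to -3.23, 0.0142; SE, n = 2 each). It was -5.15 ± 1.03 for *mylpfa* (-7.36 to -2.94, adjusted p 0.022) and -4.99 ± 0.93 for *myog* (-7.02 to -2.95, 0.0227). *myf5*, already low at 24 hpf, had a log2 fold change of -3.24 ± 1.00 (-5.40 to -1.08, adjusted p 0.125) and was not called.

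These calls were lost without replicate 2 of PGCs at either stage, in fits that leave 1 library in that group. Calls over all genes fell in these fits too. Without PGC 24 hpf replicate 2, the log2 fold change was -5.36 for *myod1* and -4.91 for *myog*. It was -4.53 for *mylpfa*, -4.77 for *ckma* and -4.82 for *acta1b*. Without PGC 36 hpf replicate 2, the values were -5.33, -4.98, -5.40, -5.78 and -5.38 for *myod1*, *myog*, *mylpfa*, *ckma* and *acta1b*. The sizes of the falls thus moved by less than 1 on the log2 scale while the calls were lost.

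In soma, none of the 6 genes was called between 24 and 36 hpf with edgeR (0% of all genes called in either direction). Each was lower at 36 hpf, with log2 fold changes of -3.54 ± 0.85 for *acta1b*, -3.50 ± 0.95 for *mylpfa*, -3.35 ± 0.90 for *ckma*, -3.28 ± 0.85 for *myog*, -2.48 ± 0.83 for *myod1* and -1.53 ± 0.92 for *myf5* (SE, n = 2 each). The adjusted p-values lay between 0.18 and 0.623, and 5 of 6 had an unadjusted p under 0.05. Over all genes, 779 of 20536 had such a p with a log2 fold change under -1.5. *acta1b*, *myog* and *myod1* did not overlap between the stages, against 23.2% of all genes in that direction, while *mylpfa* and *ckma* overlapped because soma 24 hpf replicate 1 was low. DESeq2 called 3 of 6 lower, limma on log2(TPM + 1) 3, the likelihood ratio test 4 and edgeR without the filter 5. Over all genes, these fits called 227 of 27454, 196 of 18618, 317 of 20536 and 491 of 27454 lower. Without soma 24 hpf replicate 1, the log2 fold changes of *mylpfa*, *ckma* and *acta1b* were -4.41, -4.25 and -4.37. Without soma 36 hpf replicate 2, that of *myog* was -5.38. Without soma 24 hpf replicate 2, the 3 contractile and metabolic genes had -0.46 (*mylpfa*), -0.55 (*ckma*) and -1.44 (*acta1b*).

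The test of whether the fall differed between the cell types called none of the 6 genes (0% of all genes called in either direction). The PGC change less the soma change was -3.34 ± 1.17 for *myod1*, with an unadjusted p of 0.014 and an adjusted p of 1. It lay between -2.11 and -1.65 for the other 5 genes, each with an adjusted p of 1 and an interval that included 0. *myod1* was the 1 gene of 6 with an unadjusted p under 0.05. DESeq2 and limma called 0, and edgeR without the filter called 2, where over all genes it called 60 of 27454 higher and 136 lower. A larger fall in PGCs than in soma was thus not shown.

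Between genes, levels were compared per kilobase of effective length. At 24 hpf in PGCs, *mylpfa* averaged 2252 ± 1132 CPM per kb, *acta1b* 1576 ± 546 and *ckma* 867 ± 479 (SD, n = 2). These SDs are between libraries, which the genes share, and no test was run between genes. *mylpfa* was above *acta1b* in each PGC library (1452 and 3053 against 1190 and 1962 CPM per kb), and *acta1b* was above *ckma* in each. *myod1* (53.9 ± 21.7) and *myog* (37.6 ± 3.08) came next, with *myod1* the higher in each library, and *myf5* was last at 3.58 ± 1.97. In soma the means of the contractile and metabolic genes had the same order, with 1369 ± 1701 for *mylpfa*, 1104 ± 1198 for *acta1b* and 552 ± 669 for *ckma*, each with an SD above its mean. In soma replicate 1 alone, *acta1b* (257 CPM per kb) was above *mylpfa* (166 CPM per kb). At 36 hpf the order was *mylpfa* (65.0 ± 14.6 in PGCs and 122 ± 79.6 in soma), *acta1b* (43.6 ± 6.89 and 95.1 ± 57.8) and *ckma* (20.1 ± 5.57 and 54.2 ± 41.8). This order held in each PGC and each soma library of that stage. *myog* (1.14 ± 0.120 in PGCs and 6.57 ± 7.82 in soma), *myod1* (0.946 ± 0.573 and 6.58 ± 5.87) and *myf5* (0.366 ± 0.142 and 2.23 ± 1.32) came last. The order of *myog* and *myod1* differed between the replicates of each cell type. In soma 36 hpf replicate 1, *myf5* (3.16 CPM per kb) was above *myod1* (2.43) and *myog* (1.05).

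The proportions of the contractile and metabolic genes to each other were read within each library. The ratio of *mylpfa* to *ckma* counts at 24 hpf was 2.52 and 2.32 in PGCs, against 1.93 and 2.30 in soma. At 36 hpf it was 3.10 and 2.87 in PGCs, against 2.43 and 1.95 in soma. The ratio of *acta1b* to *ckma* at 24 hpf was 2.18 and 1.58 in PGCs, against 3.16 and 1.84 in soma, and at 36 hpf 2.32 and 1.95 in PGCs, against 2.13 and 1.57 in soma. Soma 24 hpf replicate 1 had the lowest *mylpfa* to *ckma* ratio and the highest *acta1b* to *ckma* ratio of these 8 libraries. Its *mylpfa* to *acta1b* ratio was 0.612 (95% counting interval 0.574 to 0.653), against 1.25 (1.22 to 1.27) in soma replicate 2. Across the 16 libraries, which share their stages, Pearson's r of log2(CPM + 1) was between 0.990 and 0.992 among *mylpfa*, *ckma* and *acta1b*. *myod1* and *myog* had an r of 0.946 with each other, and *myf5* had between 0.180 and 0.542 with the other 5. *myf5* was the gene of the 6 present at 7 hpf at about its 24 hpf level, while the other 5 were mostly absent.

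By the same measure, the genes outside the 6 whose profile over the 16 libraries was most like the mean of *mylpfa*, *ckma* and *acta1b* were *tpma*, a tropomyosin (r = 0.998), and *ckmb*, another muscle creatine kinase (r = 0.996), among 20530 genes. At 24 hpf, *tpma* was at 2059 and 4105 CPM in PGCs, against 342 and 3876 CPM in soma, with the same low soma replicate 1. For the mean of *myod1*, *myf5* and *myog*, they were the identifiers that the name table lists as MEOX1, a homeobox regulator of somites (r = 0.981), and HOXB9, a homeobox gene of posterior identity (r = 0.974). MEOX1 was at 27.9 and 17.8 CPM in PGCs, against 52.4 and 26.2 CPM in soma, at 24 hpf, and at 2.12 and 0.225 CPM in PGCs, against 3.16 and 8.28 CPM in soma, at 36 hpf.

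The wider muscle list held 26 symbols of contractile and metabolic genes, of which 13 could be paired with 14 identifiers, all of them tested. At 24 hpf, 0 of these 14 were called between PGCs and soma, with a median log2 fold change of 0.57 against 0.06 over all genes, and 13 were positive. Without soma replicate 1, 2 of 14 were positive and the median was -0.20. Without soma replicate 2, 14 of 14 were positive and the median was 2.85. *actc1b*, a striated muscle actin and the gene of the list with the most counts, was at 6759 and 12319 CPM in PGCs, against 1418 and 10444 CPM in soma. *atp2a1*, the calcium pump of fast muscle, was at 5268 and 9701 CPM in PGCs, against 693 and 8080 CPM in soma. By CPM, both genes thus repeated the order of libraries seen in *mylpfa*.

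**Figure D5:**
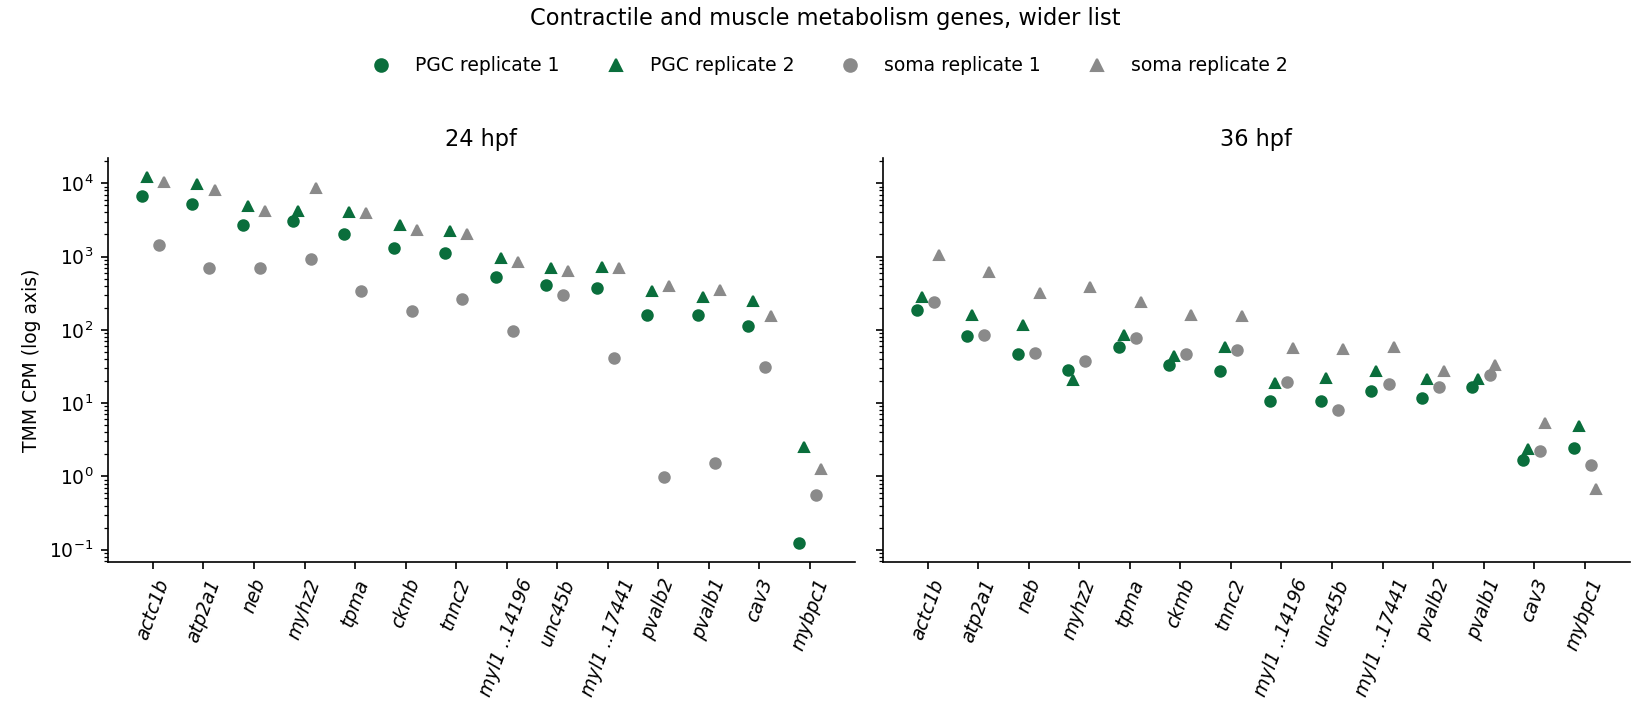
TMM-normalised CPM (log axis) of the 14 other contractile and metabolic identifiers at 24 hpf (left) and 36 hpf (right), ordered by their PGC mean at 24 hpf, with PGCs in green, soma in grey, circles for replicate 1 and triangles for replicate 2. At 24 hpf soma replicate 1 lies below the other libraries for 13 of the 14, by the most for *pvalb2* and *pvalb1*, and at 36 hpf nearly all values are lower.

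At 36 hpf, 0 of the 14 were called between PGCs and soma, 13 were lower in PGCs in value, and the median was -1.17, against 0.00 over all genes. With limma on log2(TPM + 1), the median was -0.25 and 4 of 13 were positive. Of the 14, 1 had an unadjusted p under 0.05, and DESeq2 and limma called 0. The likelihood ratio test called 1 lower and edgeR without the filter 3. Over all genes, these fits called 169 of 20536 and 515 of 27454 lower. The median was -0.09 without soma replicate 2 and -1.83 without soma replicate 1. It was -0.80 without PGC replicate 1 and -1.58 without PGC replicate 2. Between 7 and 24 hpf, 13 of 14 were called higher in PGCs and 13 of 14 in soma, against 18.2% and 22.1% of all genes. Between 24 and 36 hpf, 11 of 14 were called lower in PGCs, against 1.69% of all genes, with a median of -5.40 against 0.02 over all genes. Without PGC 24 hpf replicate 2 or PGC 36 hpf replicate 2, the medians were -4.88 and -5.82. The calls were lost in these fits, where calls over all genes fell too. In soma, 0 of 14 were called, with a median of -3.61 against 0.00 over all genes and an unadjusted p under 0.05 for 11. DESeq2 called 6 lower there, the likelihood ratio test 10, edgeR without the filter 13 and limma on log2(TPM + 1) 3 of 13. Over all genes, these fits called 227 of 27454, 317 of 20536, 491 of 27454 and 196 of 18618 lower. The median was -4.39 without soma 24 hpf replicate 1 and -4.68 without soma 36 hpf replicate 2. It was -1.12 without soma 24 hpf replicate 2 and -2.90 without soma 36 hpf replicate 1.

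Of 12 symbols of other muscle regulators, 7 could be paired and tested. Between 4 and 7 hpf, *six4b*, *tbx6*, *msgn1* and *tbxta*, regulators of mesoderm and somites, were called higher in both cell types, 4 of 7 in each. Over all genes, 5.03% were called higher in PGCs and 9.29% in soma. Between 7 and 24 hpf, *mef2d*, a MADS-box partner of the myogenic factors, and *six4b* were called higher and *tbx16* and *tbxta* lower in PGCs. In soma *mef2d* was called higher and *tbx16*, *msgn1* and *tbxta* lower. Over all genes, 18.2% were called higher and 5.97% lower in PGCs, against 22.1% and 8.76% in soma. None of the 7 was called between PGCs and soma at any stage, nor between 24 and 36 hpf in either cell type, where the medians were -3.04 in PGCs and -2.73 in soma. Between those last stages, unadjusted p was under 0.05 for 6 of the 7 in PGCs and 5 of the 7 in soma. In PGCs, DESeq2 called 3 of 7 lower, the likelihood ratio test 3 and edgeR without the filter 4. Over all genes, these tests called 710 of 27454, 853 of 20536 and 993 of 27454 lower in PGCs. In soma the same tests called 1, 2 and 5 of 7 lower, against 227 of 27454, 317 of 20536 and 491 of 27454 genes.

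For 2 of the 6 genes, reads may be shared with another gene of the same name. The name table lists *mylpfa* as MYL11 and *acta1b* as ACTA1, and gives each of these names to another identifier as well, between which the quantification may have divided reads. Their sequences were not compared. The other MYL11 identifier (ENSDARG00000002589) was at 85.5 and 163 CPM in PGCs, against 2.21 and 143 CPM in soma, at 24 hpf. The other ACTA1 identifier (ENSDARG00000036371) was at 475 and 1122 CPM in PGCs, against 305 and 854 CPM in soma. Soma replicate 1 was the lowest 24 hpf library of both, as it was of *mylpfa* and *acta1b*.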

How the data were processed

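RNA-seq libraries were made with a low-input, stranded total RNA kit from sorted PGCs and soma. The authors trimmed reads with Trim Galore v0.4.0, aligned them to danRer10 with STAR v2.4.0d and quantified genes with RSEM v1.2.21. The deposited expected counts are RSEM's estimated counts per gene, not normalised (95.2% of the values are whole). The deposited TPM values are scaled for length and to a common total, and a gene with an effective length of 1.55 to 4.12 bases took between 2.84% and 46.6% of them, so TPM served as an alternative. The deposited effective lengths (bases per gene and library) gave values per kilobase. Depth, library groups and replicate numbers are as the report gives them.

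Expected counts were rounded, and 92 spike-in rows with 0 counts were left out. All 16 libraries entered an edgeR 4.0.16 fit (R 4.3.3; filterByExpr with at least 10 scaled counts and 15 in total; TMM; glmQLFit, glmQLFTest) with 8 groups. The Benjamini-Hochberg adjustment ran across the 20536 genes tested, and a gene was called at an adjusted p under 0.05 and a log2 fold change past 1.5, as in the study's methods. Standard errors are the log2 fold change over the root of the F statistic. With 2 libraries a group, p-values rest on a spread between replicate libraries that was estimated over all 8 groups together. It is not the spread of the compared groups alone. Fold changes against a group at 0 are bounds against 3 counts in its shallower library, and at 1 to 3 counts ratios of summed counts with exact 95% intervals, which cover counting error only, since reads carry no molecular identifiers here.

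The name table pairs 26790 of the identifiers with symbols. All 6 genes are named, wider-list genes by counts and medians with values for at most 10, and the 2 genes most like each mean profile. The values of *tbx6*, *msgn1*, *tbx16*, *tbxta*, *pvalb1*, *pvalb2*, *actc1b* and *atp2a1* were chosen after they were seen. The genes and lists were chosen with earlier results of these data known. Alternatives were DESeq2 1.42.0, RLE factors, no or a stricter filter, the likelihood ratio test, length offsets, limma 3.58.1 with a pseudocount of 1 or 0.1 added to TPM before log2, a replicate block, single-stage fits and leaving out each library. Sequences and coordinates were not used here.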

Additional observations from a re-analysis of the deposited data

How the results depend on the processing

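The count of the 6 genes called stayed within 1.5 times the reported count in the alternatives other than these. Without the filter on low counts, 1 gene was called in PGC against soma at 7 hpf and 2 at 36 hpf (0 reported for each), 2 in PGC 7 against 4 hpf (reported 1), 5 in soma 36 against 24 hpf (reported 0) and 2 for the difference of the 36 against 24 hpf change between cell types (reported 0). The likelihood ratio test called 1 in PGC against soma at 36 hpf, 2 in PGC 7 against 4 hpf and 4 in soma 36 against 24 hpf. In PGC 7 against 4 hpf, 1540 of 27454 genes were called higher and 791 lower without the filter. With the likelihood ratio test, 1792 of 20536 genes were called higher there and 979 lower. For the other comparisons called with these fits, the numbers over all genes are given above. DESeq2 called 3 in soma 36 against 24 hpf. With limma on log2(TPM + 1), 1 was called in soma 7 against 4 hpf (reported 2), 0 in PGC 7 against 4 hpf and 3 in soma 36 against 24 hpf. Of 18618 genes, it called 1236 higher and 1045 lower in soma 7 against 4 hpf. In PGC 7 against 4 hpf it called 522 higher and 458 lower. With a pseudocount of 0.1, 3 were called in PGC 36 against 24 hpf (reported 5), where 530 of 18618 genes were called higher and 264 lower. The stricter filter left 1 in soma 7 against 4 hpf, against 1726 of 12730 genes called higher and 2294 lower. Leaving out each library gave 0 to 2 called in soma 7 against 4 hpf, 0 to 1 in PGC 7 against 4 hpf, 0 to 3 in soma 36 against 24 hpf and 0 to 5 in PGC 36 against 24 hpf. These fits assume that the lone library left varies like the other groups, and the number of all genes called moved in them as well. The cause was not tested.

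Signs changed for small differences. For PGC against soma at 24 hpf, leaving out each library gave log2 fold changes of -1.56 to 0.39 for *myf5*, -0.88 to 0.29 for *myog*, -0.18 to 3.77 for *mylpfa*, -0.24 to 3.47 for *ckma* and -0.30 to 2.62 for *acta1b*. The 24 against 7 hpf change of *myf5* ran from -0.78 to 0.57 in PGCs and from -1.61 to 0.43 in soma, and in PGCs it was 0.0487 with DESeq2 and 0.0485 with RLE factors. The log2 ratio of PGC 36 hpf replicate 1 to replicate 2 was -0.61 for *myog* in TPM.

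Same-numbered replicates of PGC and soma deviated together with correlations of 0.298, 0.1005, 0.235 and 0.310 at 4, 7, 24 and 36 hpf, which with 2 pairs a stage does not show that they were paired. A block of stage and replicate number left 0, 0, 0 and 0 of 6 called between PGCs and soma. Over all 20536 genes, it called 5, 768, 7 and 116 higher and 0, 304, 1 and 18 lower at 4, 7, 24 and 36 hpf. Comparisons between stages used another model, with a replicate-number term shared by all stages and both cell types. With that shared term, 5 of 6 were called lower in PGC 36 against 24 hpf. These models changed no other count of calls among the 6 genes. Of the wider lists, with the shared term 8 of 14 contractile genes were called lower in soma 36 against 24 hpf (reported 0). Of the regulators, 2 of 7 were called lower in PGC 36 against 24 hpf (reported 0). In PGC 24 against 7 hpf, 3 of 7 regulators were called higher and 3 lower (reported 2 and 2). Of all 20536 genes, the model with the shared term called 88 lower in the first of these comparisons and 438 lower in the second. In the third it called 3747 higher and 1258 lower. Depth limits the regulators most, since they had 4 to 34 counts in the PGC libraries at 36 hpf.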
